A study of Rattus norvegicus with 110 samples.

Results

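Vegfa, Ski and Il17ra (ENSRNOG00000019598.8, ENSRNOG00000055340.1 and ENSRNOG00000011153.6) are 3 of the 31998 gene identifiers measured in liver and kidney of male Sprague Dawley rats. They were picked because the study had singled them out on ancestry contrasts of these same liver libraries, so their ancestry differences in liver are described here and not tested. All 3 passed the filter on low counts in both organs, as did 19004 identifiers in liver and 18374 in kidney.

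The F2 males belonged to 4 ancestries. Ancestry A had no treated ancestor, B had a treated F1 sire, C a treated F0 grandsire, and D both. Treated ancestors had received 50% carbon tetrachloride (CCl4) for 6 weeks, followed by 2 weeks of recovery before mating. The F2 males were themselves gavaged with olive oil alone (vehicle), 8% CCl4 (low dose) or 50% CCl4 (high dose), at 0.5 mL/kg and 3 times a week for 6 weeks, and tissues were collected on day 39, 24 h after the final gavage. Each of the 12 liver groups held 7 males, except the vehicle group of ancestry C with 6. Kidneys came from the 27 vehicle males only. The males were not unrelated, since they came from 34 litters and 17 F0 sires, and necropsies were spread over 4 dates. The genes were picked on ancestry effects fitted over all doses and on vehicle livers of A against those of C and D. Differences of a dose from vehicle therefore draw in part on values that chose the genes, most of all within A, C and D, whereas the difference of high from low dose was not among the contrasts used.

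CCl4 is converted by hepatocytes to a radical that kills cells around the central vein, and repeated dosing leads to fibrosis. Vegfa encodes the main growth factor of vascular endothelium. It is a classical target of the hypoxia response and acts on liver sinusoidal endothelium through the receptor Kdr. Ski encodes a corepressor that binds SMAD proteins and restrains TGF-beta signalling, the pathway that drives matrix production by stellate cells. Il17ra encodes the receptor subunit shared by several IL-17 cytokines. It signals through the adaptor Traf3ip2 to induce inflammatory genes such as Lcn2.

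The sequence before the annotated start is shown for Vegfa and Ski because these 2 members differ in base composition there. RefSeq sequence of build GRCr8 was found for 2 of the 3 members, and Il17ra is named only. The 250 bases are written 5′ to 3′ on the strand of the gene, with GGGCGG, the core of the GC box, in capitals wherever it occurs on either strand. The Vegfa window is chr9:22452604-22452853 on the plus strand, and the Ski window is chr5:171064958-171065207 on the minus strand.
Vegfa: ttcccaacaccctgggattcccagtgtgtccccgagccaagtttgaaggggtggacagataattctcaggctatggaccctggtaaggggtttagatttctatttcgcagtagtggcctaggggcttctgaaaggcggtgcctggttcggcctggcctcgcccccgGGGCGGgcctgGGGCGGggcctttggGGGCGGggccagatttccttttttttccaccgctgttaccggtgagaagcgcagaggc
Ski: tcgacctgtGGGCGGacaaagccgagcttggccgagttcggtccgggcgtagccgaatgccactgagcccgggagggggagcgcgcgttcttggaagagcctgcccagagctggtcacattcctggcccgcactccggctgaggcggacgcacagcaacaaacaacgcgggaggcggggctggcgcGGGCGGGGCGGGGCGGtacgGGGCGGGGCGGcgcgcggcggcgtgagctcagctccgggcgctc

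The Ski window had a GC content of 73.6%, higher than in 95.5% of the 33469 windows in the table, and held 6 GGGCGG matches, overlapping ones included. The Vegfa window had a GC content of 60.4% and held 3. A match to GGGCGG was present in 30.5% of all windows. ACGTG and GCGTG, both forms of the core of the hypoxia response element, were searched on both strands. ACGTG occurred in neither printed window and in 16.6% of all windows. GCGTG occurred 1 time in the Ski window, not in the Vegfa window, and in 25.9% of all windows. A second annotated Vegfa start, with the window chr9:22460028-22460277, held none of these motifs.

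Library totals ran from 31638559 to 51343589 counts in liver and from 21961746 to 35055218 in kidney. Levels below are CPM (counts scaled to a fixed library sum) adjusted by TMM, the trimmed mean of M values, which assumes that most genes do not change. The tissue labels were checked with genes of each organ: Cyp1a2, a hepatocyte enzyme, had a median of 209 TPM (counts divided by transcript length and scaled to a fixed sum) in vehicle liver and 0 in kidney, and Lrp2, a receptor of the proximal tubule, had 1.03 in liver and 303 in kidney. The libraries least like their groups were the high-dose replicate 7 of ancestry D (median correlation 0.937, TMM factor 2.03) and the vehicle replicate 4 of ancestry C (0.958).

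On the TMM scale Vegfa had the largest high-dose difference of the 3 members, averaged over ancestries. In vehicle livers its level ran from 97.9 to 224 TMM-scaled CPM with a median of 146 (n = 27). At the low dose it ran from 86.7 to 217 with a median of 136 (n = 28), and at the high dose from 50.5 to 136 with a median of 78.3 (n = 28). High-dose livers lay mostly below the others, with some overlap when all ancestries were pooled. Averaged over the 4 ancestries, Vegfa fell by 0.94 on the log2 scale (SE 0.0712) at the high dose against vehicle (edgeR quasi-likelihood test, adjusted p = 6.55e-20), and it also fell when libraries were scaled to their totals (-0.34), where 8.78% of all genes were called lower.

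Il17ra and Ski had smaller differences, whose direction depended on the scaling. Il17ra ran from 42.8 to 70.4 TMM-scaled CPM in vehicle livers with a median of 53.4, and from 29.9 to 51.2 with a median of 40.8 at the high dose. On the TMM scale it fell by 0.45 (SE 0.0429, adjusted p = 1.98e-15 by edgeR), but on library totals it was 0.15 higher (adjusted p = 0.0028). Ski ran from 9.71 to 25.3 in vehicle livers with a median of 19.5, and from 9.11 to 18.7 with a median of 14.3 at the high dose. It fell by 0.33 on the TMM scale (SE 0.0781, adjusted p = 0.000165 by edgeR), but was 0.28 higher on library totals (adjusted p = 0.00257). The ranges overlapped for both genes. On library totals 73.1% of all genes were called higher.

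On the TMM scale all 3 members were thus called lower at the high dose, as were 34.4% of all genes tested (adjusted p under 0.1). High-dose libraries had TMM factors of 0.947 to 2.03 against 0.718 to 0.913 in vehicle, and their 10 most abundant genes took a median of 19.1% of the counts against 24.2%. On library totals the median gene was 0.62 higher at the high dose, against 0.01 with TMM. All 3 members lay below the median gene on either scale. In bulk tissue, fewer cells of a type and less RNA per cell cannot be told apart.

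**Figure D1:**
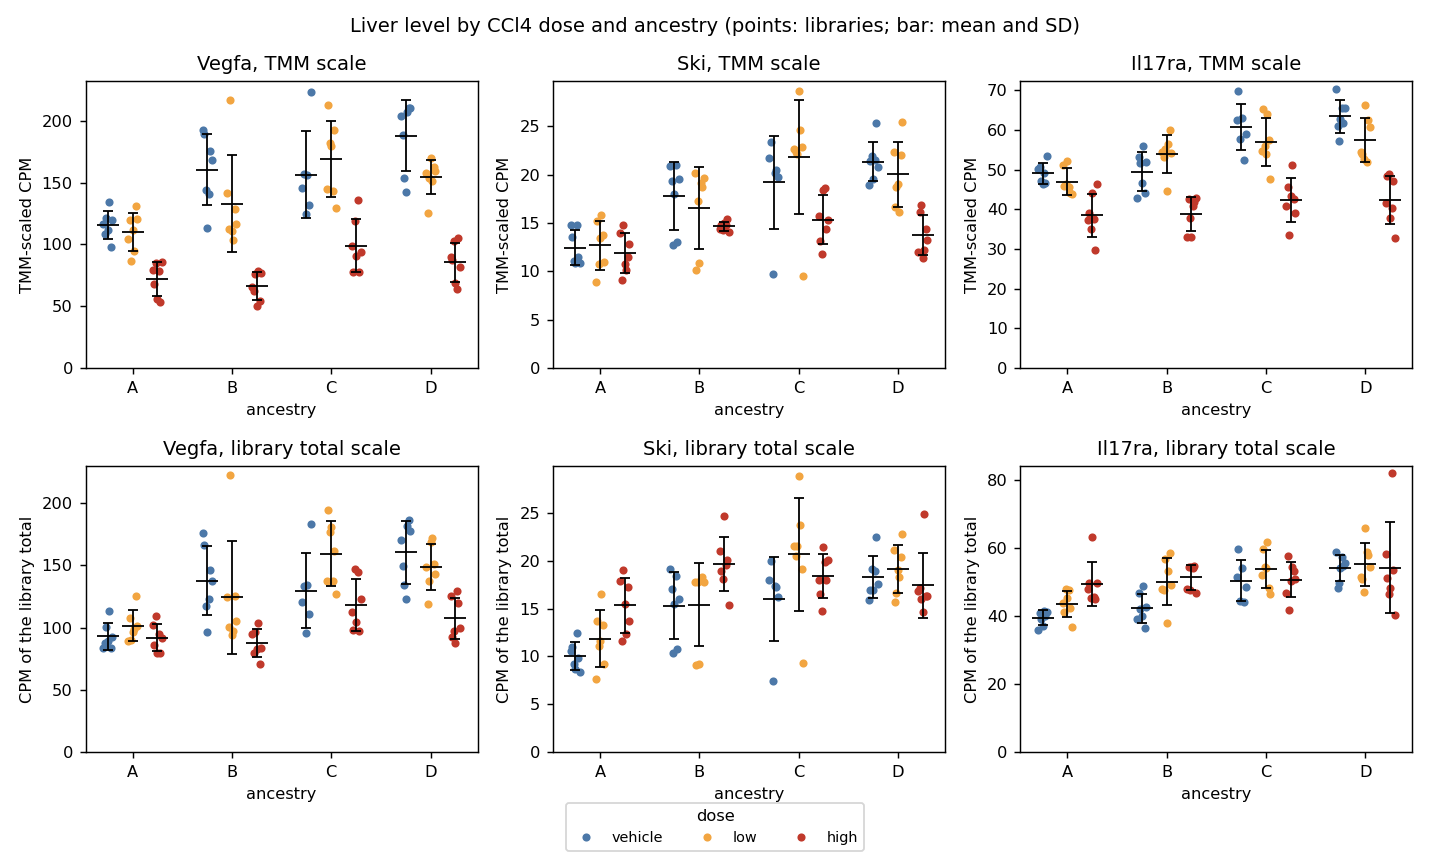
Liver level of each member (y axis, CPM) by ancestry (x axis) and F2 dose (colour), scaled by TMM in the top row and to library totals in the bottom row, where points are libraries and bars are the mean and SD of 6 or 7 males. At the high dose Vegfa lies below vehicle in every ancestry in the top row and in B and D by the most in the bottom row, whereas Ski and Il17ra lie below vehicle mainly in the top row.

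**Figure D2:**
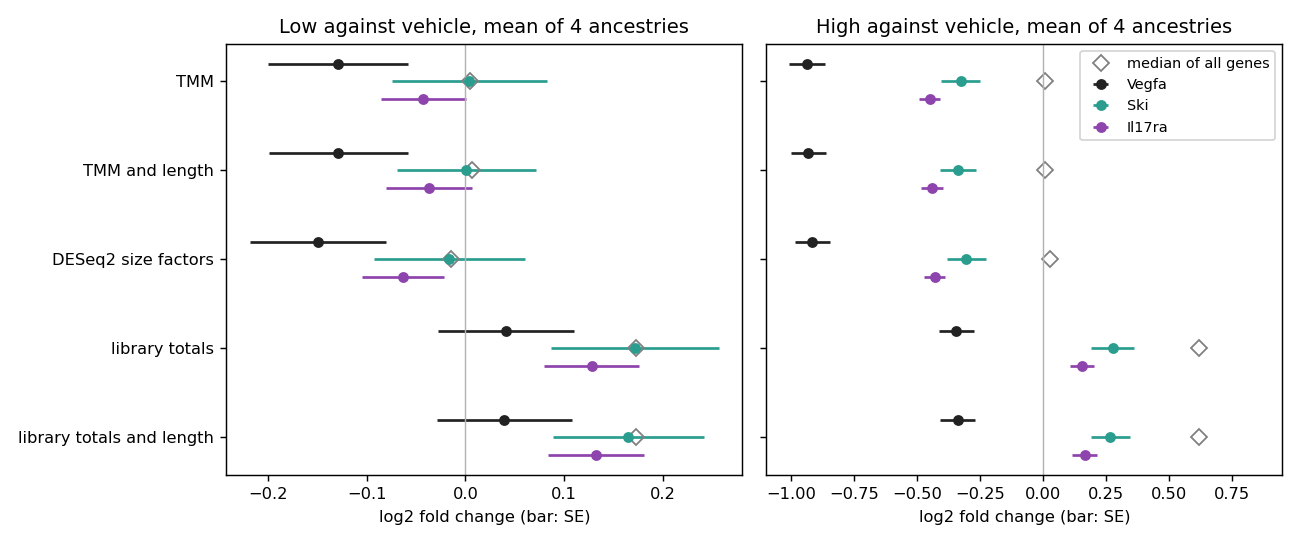
Log2 fold change against vehicle averaged over the 4 ancestries (x axis, bars are SE) under 5 scalings (y axis), for the low dose on the left and the high dose on the right. Diamonds mark the median of all genes, which lies at 0.62 for the high dose on library totals. Ski and Il17ra change sign with the scaling at the high dose, while Vegfa stays below 0.

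The ratio of the counts of a pair of members within a library needs no scaling. It was added after the results above were seen and restates them, so it is a description with no test. The Vegfa count per Ski count had a median of 9.10 in vehicle and 5.73 in high-dose livers of ancestry A, 9.20 and 4.54 in B, 7.23 and 6.14 in C, and 8.82 and 6.11 in D. Averaged over ancestries the log2 ratio of Vegfa to Ski differed by -0.628 (SE 0.0833) and that of Vegfa to Il17ra by -0.485 (SE 0.0732) at the high dose against vehicle. Against the low dose the differences were -0.506 (SE 0.0877) and -0.396 (SE 0.072). Each of these was lower in 4 of 4 ancestries. The log2 ratio of Ski to Il17ra was 0.143 higher at the high dose than in vehicle (SE 0.0736), and 0.0998 higher without the vehicle replicate 4 of ancestry C.

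At the low dose no member was called, where 28.4% of all genes tested were called in either direction. On the TMM scale Vegfa differed from vehicle by -0.13 (SE 0.0707, adjusted p = 0.194 by edgeR), Ski by 0.00 (SE 0.0782) and Il17ra by -0.04 (SE 0.0429, adjusted p = 0.536). On library totals, where the median gene was 0.17 higher, Vegfa was 0.04 higher, Ski 0.17 higher and Il17ra 0.13 higher, of which Il17ra was called (adjusted p = 0.0328 by edgeR), as were 40.2% of all genes in either direction. Within ancestries no member was called at the low dose, where 6.28% of all genes were called in A, 6.44% in B, 10.3% in C and 7.4% in D. The averaged Vegfa difference was called by DESeq2 (-0.15, adjusted p = 0.0963) and without the libraries of necropsy date 2 (-0.25, adjusted p = 0.0115 by edgeR).

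The high dose was also set against the low dose, a comparison that does not use the vehicle libraries shared by the comparisons above. Vegfa fell by 0.81 (SE 0.0704, adjusted p = 2.37e-16 by edgeR) and also fell on library totals (-0.39), where 9.35% of all genes were called lower. On the TMM scale Il17ra fell by 0.41 (SE 0.0425) and Ski by 0.33 (SE 0.0773), but on library totals they were 0.03 and 0.10 higher and not called. Of all genes tested, 31.1% were called lower on the TMM scale. Within ancestries, Vegfa and Il17ra were called lower than at the low dose in 4 of 4 and Ski in C and D (-0.51 and -0.54), of which C was not called with the litter as a block, where 16.7% of all genes were called lower in A, 20.1% in B, 16.6% in C and 14.9% in D. On library totals Vegfa was called lower in B, C and D, Il17ra was called in 0 of 4, and Ski was called higher in A and B (0.37 and 0.35). On that scale 5.39% of all genes were called lower in A, 6.04% in B, 5.36% in C and 5.03% in D, and 52.3%, 55.8%, 38.6% and 50% were called higher. The TMM-scaled ranges of the high and the low dose did not overlap for Vegfa in A, B and D and for Il17ra in B and D, against 2.91% of all genes in A, 4.69% in B, 2.79% in C and 1.51% in D.

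Within ancestries, Vegfa was called lower at the high dose than in vehicle in 4 of 4, where 22% of all genes tested were called lower in A, 25.9% in B, 24.4% in C and 23.1% in D. In ancestry A vehicle livers ran from 97.9 to 134 TMM-scaled CPM (median 116) and high-dose livers from 53.0 to 85.9 (median 78.3). In B they ran from 113 to 193 (median 168) and from 50.5 to 78.4 (median 65.5). In D they ran from 143 to 210 (median 204) and from 63.5 to 105 (median 87.7). The ranges did not overlap in these 3 ancestries. In C vehicle livers ran from 124 to 224 (median 151) and high-dose livers from 77.8 to 136 (median 93.9), which overlapped. A lower range without overlap was found for 7.69% of all genes in A, 8.49% in B, 5.15% in C and 4.98% in D.

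The fitted Vegfa change on the TMM scale was -0.68 in A, -1.28 in B, -0.66 in C and -1.14 in D. On library totals it was -0.02, -0.65, -0.13 and -0.58, and was called in B and D only. On that scale 5.53% of all genes were called lower in A, 6.68% in B, 7.09% in C and 6.24% in D, and 65.4%, 61.4%, 53% and 60.4% were called higher. Ancestry A and C therefore had the smaller Vegfa differences on both scales. Whether the ancestries differed is not tested, because the vehicle levels chose the gene.

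Il17ra was called lower in 4 of 4 ancestries on the TMM scale, with -0.35 in A, -0.35 in B, -0.52 in C and -0.58 in D. Of all genes tested, 22% were called lower on that scale in A, 25.9% in B, 24.4% in C and 23.1% in D. On library totals Il17ra was instead 0.33 and 0.28 higher in A and B, both called, and 0.01 and 0.00 higher in C and D, not called. These calls stand beside the 65.4% and 61.4% of all genes called higher there in A and B. In D vehicle livers ran from 57.3 to 70.4 TMM-scaled CPM (median 62.9) and high-dose livers from 32.8 to 49.0 (median 41.6). The ranges did not overlap in B, C and D on the TMM scale, where 8.49%, 5.15% and 4.98% of all genes had a wholly lower range. In A the highest high-dose liver, 46.4, reached the lowest vehicle liver. On library totals no member had a wholly lower range at the high dose in any ancestry, as was the case for all but 1.56% of genes in A, 1.76% in B and 1.09% in C and in D, and Il17ra in A had a wholly higher one, as did 33% of all genes there.

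Ski was called lower in 2 of 4 ancestries on the TMM scale, C and D, where 24.4% and 23.1% of all genes were called lower, and in D alone under many alternatives. In A its median was 11.5 TMM-scaled CPM in vehicle, 13.4 at the low and 11.4 at the high dose, and the high-dose difference of -0.07 (SE 0.155) was not called. In D vehicle livers had a median of 21.4 and reached 25.3, while high-dose livers ran from 11.4 to 16.8 (median 13.2), without overlap, as for 4.98% of all genes, and the difference was -0.64 (SE 0.155), a description, since D vehicle livers helped to choose the gene. On library totals the D difference was -0.07 and not called. In B the difference was -0.28 and not called.

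In C the high-dose difference of Ski was -0.33 on the TMM scale (SE 0.161), likewise a description. It was no longer called with the animal number as a replicate block, with the date or the litter as a block, with no filter on low counts, at an adjusted p under 0.05, without date 1 (-0.14), 3 or 4, or without the high-dose replicate 7 of ancestry D. On library totals Ski was 0.61 higher in A, 0.36 higher in B and 0.19 higher in C, called in A and B, where 65.4% and 61.4% of all genes were called higher.

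Each necropsy date gave the same direction for Vegfa and Il17ra on the TMM scale. High-dose Vegfa differed from vehicle by -1.03, -0.72, -0.88 and -1.07 on dates 1 to 4, averaged over ancestries, and lay below 0 on library totals on every date as well. Il17ra differed by -0.48, -0.45, -0.46 and -0.44, but on library totals it was higher on every date (0.12 to 0.20). Ski differed by -0.49, 0.05, -0.49 and -0.29, so that date 2 went the other way, and on library totals it was higher on every date (0.12 to 0.67).

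The ancestry levels in liver are described without a test. In vehicle livers the mean log2 level of Vegfa was 0.46 higher in B, 0.42 higher in C and 0.69 higher in D than in A. Ski was 0.50, 0.59 and 0.79 higher, and Il17ra 0.01, 0.31 and 0.37 higher. Vegfa was above A on 4 of 4 necropsy dates in B, C and D. Ski was above A on 4 of 4 dates in B and D and on 3 of 4 in C, and Il17ra on 4 of 4 in C and D and on 2 of 4 in B.

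At the low dose the same differences from A were 0.24, 0.62 and 0.50 for Vegfa, 0.36, 0.75 and 0.67 for Ski, and 0.20, 0.27 and 0.29 for Il17ra in B, C and D. The low-dose Vegfa value of B was 0.12 without replicate 4, which lay far above its group. At the high dose they were -0.12, 0.45 and 0.25 for Vegfa, 0.32, 0.37 and 0.22 for Ski, and 0.02, 0.14 and 0.14 for Il17ra. Ancestry A thus had the lowest Ski at each dose, while high-dose Vegfa was lowest in B.

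Whether the effect of a treated ancestor differed between the high and the low dose was tested, as this contrast was not used to choose the genes. For a treated F0 the difference between doses was -0.01 (SE 0.14) for Vegfa, -0.39 (SE 0.155) for Ski and -0.05 (SE 0.0849) for Il17ra. For a treated F1 it was -0.24 (SE 0.14), -0.06 (SE 0.155) and -0.10 (SE 0.0849). No member passed the edgeR test, which called 0% of all genes in either contrast (0 genes). At an unadjusted p under 0.05 it held 716 genes for F0 and 875 for F1, among them Ski for F0, and DESeq2 called 7 and 5 genes.

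Ski stood out in its average transcript length, the effective length of a gene's transcripts in a library, weighted by abundance where a gene has several. Over the 83 liver libraries it ran from 1254 to 2072 bases, a coefficient of variation of 10.1% against a median of 2.03% over 13991 genes with a count in every liver library, of which 4.37% varied more. Vegfa lengths ran from 2351 to 2597 bases (1.93%) and Il17ra lengths from 3384 to 3923 (2.50%). As deposited, the Ski and Il17ra lengths carry at most 3 decimals, as for 71.0% of these genes, while those of Vegfa carry up to 11. Lengths with so few decimals read as the effective length of a lone transcript in each library, rather than a mean over several. The Ski length differences are thus not read as changes in transcript use, and their source was not tested.

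In vehicle livers the mean Ski length was 1556 ± 157 bases in A (SD, n = 7), 1810 ± 172 in B (n = 7), 1829 ± 160 in C (n = 6) and 1849 ± 146 in D (n = 7). In A it was 1622 ± 185 at the low and 1707 ± 187 at the high dose. At these doses it was 1743 ± 199 and 1829 ± 128 in B, 1863 ± 185 and 1827 ± 140 in C, and 1750 ± 128 and 1735 ± 141 in D. Ancestries A and D were thus close at the high dose. Over all doses the median was 1615 bases in A (n = 21) and 1830 in B, C and D together (n = 62), with overlapping ranges. On each of the 4 dates the mean vehicle length was shortest in A. Kidney values ran from 1772 to 2223 bases, and the group mean was shortest in A there too (1935 against 2002.9 to 2072). A shorter length in A was not particular to Ski. In vehicle livers the mean length of Vegfa was 2431 bases in A against 2474 to 2487 in the others, and that of Il17ra was 3625 against 3757 to 3777. Of 13991 genes, 4116 passed the limma test of length for a treated F0 in vehicle livers. That test set C and D against A and B, so it does not test A alone. The count was 0, 1, 1 and 0 without necropsy date 1, 2, 3 and 4. For a treated F1 it was 0 with all dates, and 3975, 4687, 1 and 0 without date 1, 2, 3 and 4. These counts thus depended on which dates were used.

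With group means removed, the Ski level correlated with its length across the 83 liver libraries (r = 0.434), and the level per length did not (r = -0.0253). These are descriptions, because both values come from 1 quantification. For Vegfa and Il17ra the level and the length had r = 0.133 and -0.0692.

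Dividing by length reduced the vehicle differences of Ski from A to 0.28 in B, 0.35 in C and 0.53 in D. Those of Vegfa were 0.43, 0.39 and 0.66 per length, and those of Il17ra -0.04, 0.25 and 0.32. The dose effect moved less: with length offsets and TMM the high-dose difference was -0.93 for Vegfa, -0.34 for Ski and -0.44 for Il17ra. Length itself did not pass a limma test by dose for Vegfa (0.000166 log2 units at the high dose, SE 0.00738, adjusted p = 0.997) or Il17ra (-0.00325, SE 0.00923, adjusted p = 0.943), where 26.4% of all genes were called. The Ski length differed by 0.01 at the high dose, given as a description.

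**Figure D3:**
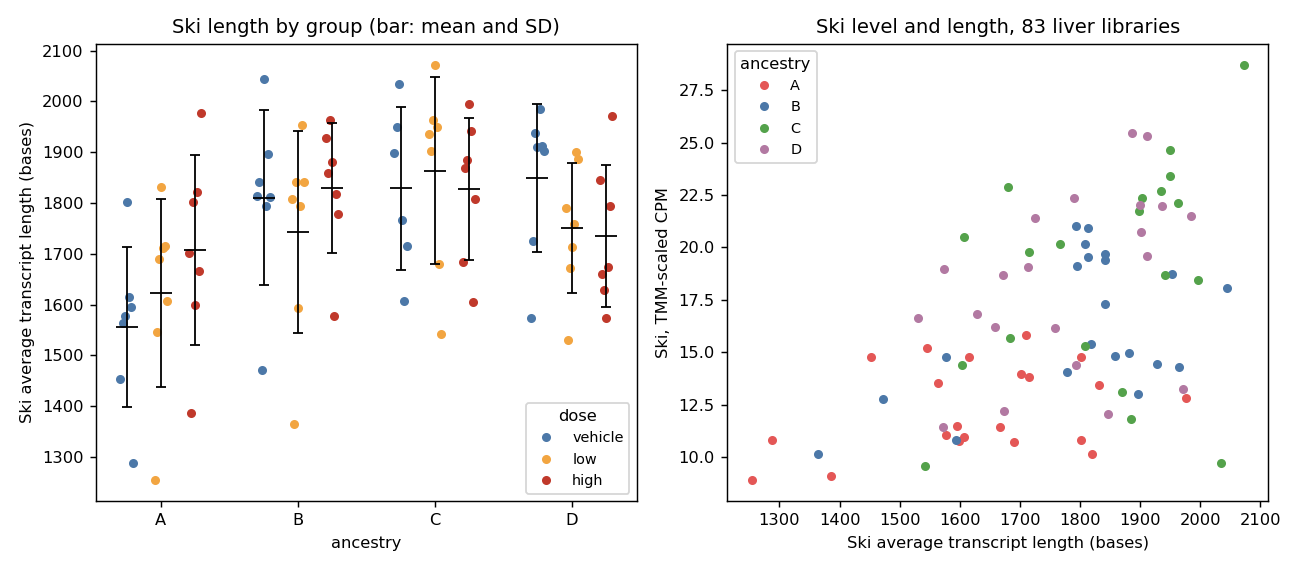
Ski average transcript length in bases (left, y axis) by ancestry and dose, with points for libraries and bars for mean and SD, and Ski level in TMM-scaled CPM against that length in 83 liver libraries coloured by ancestry (right). The shortest value, 1254 bases, is in ancestry A, and libraries with a longer Ski had on the whole a higher level.

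Kidney was not used to choose the genes, and no ancestry effect on a member was called there. A treated F0 changed the estimate by 0.02 (SE 0.0363) for Vegfa, 0.04 (SE 0.0591) for Ski and 0.04 (SE 0.0371) for Il17ra, with adjusted p of 0.910, 0.844 and 0.779 by edgeR. A treated F1 gave 0.02, 0.07 and 0.06, with adjusted p of 0.983, 0.927 and 0.879. Of all genes, 0.0109% were called for F0 and 0% for F1, and 1599 and 1225 genes had an unadjusted p under 0.05. DESeq2 called 77 genes for F0 and 0 for F1. With the animal number as a replicate block 6 genes were called for F0 in place of 2. Group means lay between 178 and 186 TMM-scaled CPM for Vegfa, 41.0 and 44.4 for Ski, and 42.0 and 44.9 for Il17ra. The liver and kidney effects were not tested against each other.

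The organ comparison used the 27 vehicle males, paired by animal. Ski was lower in liver under every scaling tried, by 0.63 on the log2 scale with TMM factors over both organs (-0.63, SE 0.0786, adjusted p = 1.1e-08 by edgeR) and by 1.59 on library totals (-1.59). Its TPM ran from 2.91 to 14.9 in liver with a median of 11.5 and from 19.1 to 28.8 in kidney with a median of 25.2, and was lower in liver in every male (0 of 27 higher). Vegfa was 0.42 higher in liver with TMM (SE 0.0618, adjusted p = 2.27e-07 by edgeR) but 0.54 lower on library totals (-0.54). Il17ra was 1.06 higher with TMM (SE 0.0422, adjusted p = 5.29e-21 by edgeR) and 0.09 higher on library totals (adjusted p = 0.0534).

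With TMM, 40.5% of all genes were called higher in liver and 45.1% lower. TMM factors ran from 0.623 to 0.806 in liver and from 1.30 to 1.51 in kidney, and on library totals 16.3% were called higher and 75% lower, and the median gene was 1.02 lower in liver (-1.02, against -0.07 with TMM). Vegfa was higher in liver in 25 of 27 males with TMM, 6 by TPM and 1 on library totals, and Il17ra in 27, 22 and 16. Ski was higher in liver in 1 male with TMM and in 0 by TPM or on library totals. Organ and library preparation cannot be told apart.

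**Figure D4:**
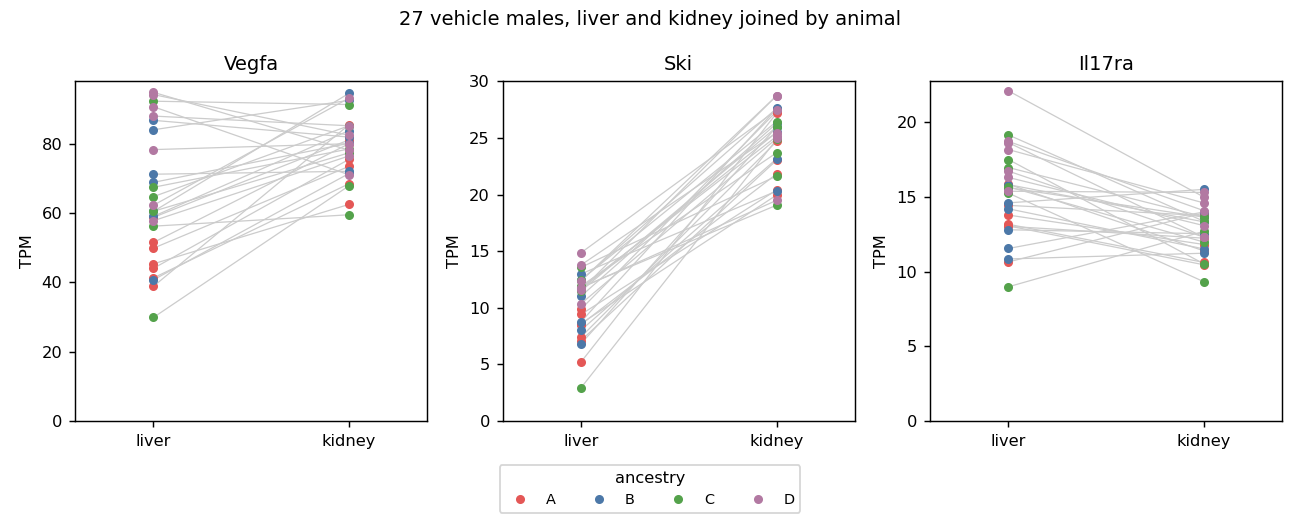
TPM (y axis) of each member in liver and kidney of the same 27 vehicle males, with points coloured by ancestry and joined by animal. Ski is lower in liver in all 27 males, while lines for Vegfa and Il17ra run both ways, as their organ difference also shrinks or turns with the scaling.

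In TPM, group means over the 16 groups ran from 44.6 to 82.4 for Vegfa, from 8.01 to 25.7 for Ski and from 11.9 to 18.1 for Il17ra. For Ski the 4 kidney groups ranked above the 12 liver groups, and the lowest was ancestry A vehicle liver. Neighbours in this order differed by more than the larger of their SDs in 0 of 15 pairs for Vegfa, 1 of 15 for Ski and 0 of 15 for Il17ra. The Ski pair was kidney of ancestry A and high-dose liver of ancestry B.

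Liver and kidney levels of the same male, less the group mean, had Pearson's r of 0.232 for Vegfa, -0.158 for Ski and 0.0619 for Il17ra, and Spearman's rho of 0.164, -0.0140 and 0.0842 (n = 27). None passed a permutation test (100000 resamples, two-sided, adjusted over 3 genes p = 0.768, 0.768 and 0.803 for r, and 0.949 for each rho). Without the 2 males farthest from the median liver level r was -0.101 for Vegfa, -0.0596 for Ski and -0.0911 for Il17ra, so the sign for Vegfa and Il17ra rested on those males.

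Within liver groups the members varied together weakly. Over 83 libraries, less group means, r was 0.339 for Vegfa and Ski, 0.267 for Vegfa and Il17ra, and 0.331 for Ski and Il17ra, and rho was 0.317, 0.242 and 0.293. By permutation within groups, added after the data were seen and adjusted over 3 pairs, p was 0.00947, 0.0317 and 0.00947 for r, and 0.0149, 0.0460 and 0.0163 for rho. Without the 2 libraries farthest from the median r was 0.348, 0.292 and 0.278. Within the 3 dates that gave a value r ran from 0.362 to 0.608, from 0.0886 to 0.717 and from -0.108 to 0.395, so for Ski and Il17ra the sign differed between dates. The members share each library's scaling factor.

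Of 152 listed pathway and marker genes, 16 could be tied to an identifier. The symbols came from gene lists that had been picked on these samples, which is not independent evidence of their direction. At the high dose 7 of the 16 rose and 5 fell on the TMM scale, against 37.8% of all genes called higher and 34.4% called lower. Of the 9 VEGF ligands and receptors, Kdr was the 1 tied. It ran from 50.1 to 132 TMM-scaled CPM in vehicle livers (median 93.7) and from 19.1 to 98.7 at the high dose (median 42.6), and fell by 1.05 (SE 0.102, adjusted p = 4.6e-15 by edgeR), and also on library totals (-0.51). Of 19 hypoxia response genes, Ankrd37 was tied and rose by 0.60, at a median of 0.866 TMM-scaled CPM in vehicle and 1.31 at the high dose.

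Of 20 genes of the TGF-beta and SKI pathway, 2 were tied. Tgfb2, a TGF-beta ligand, rose by 1.40 (SE 0.154, adjusted p = 7.42e-13 by edgeR), from a median of 1.64 to 4.46 TMM-scaled CPM. Smad6, an inhibitory SMAD, fell by 0.25 (adjusted p = 0.0862 by edgeR), but on library totals it was 0.37 higher. Of 12 IL-17 ligands, receptors and adaptors, Traf3ip2 rose by 0.18 (adjusted p = 0.0402 by edgeR), and Il17rb, a receptor subunit for IL-25, was not called at the high dose (0.16) and fell by 0.64 at the low dose. Of 12 IL-17 target genes, Lcn2 was tied and rose by 5.62 (SE 0.434, adjusted p = 1.51e-19 by edgeR), to a median of 48.8 TMM-scaled CPM at the high dose, where livers ran from 0.440 to 429, against 0.0349 to 3.78 in vehicle. It also rose at the low dose, by 1.70.

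Of the cell type markers named here, 3 of 6 were called at the high dose on the TMM scale, where 37.8% of all genes were called higher and 34.4% lower. Of 10 hepatocyte markers 2 were tied, of which Cyp1a2 fell by 1.26 (-0.65 on library totals) and Tat was not called (-0.12, but 0.51 on library totals), and their summed level had a median of 1220 TMM-scaled CPM in vehicle and 889 at the high dose. Of 10 macrophage markers 3 were tied. Adgre1 rose by 0.39, whereas Cd163 (0.02) and Cd5l (0.00) were not called, and on library totals these were 0.96, 0.58 and 0.41 higher. Their sum had a median of 154 TMM-scaled CPM in vehicle and 189 at the high dose. Cd4, the 1 tied of 8 lymphocyte markers, rose by 1.15 (1.74 on library totals), from a median of 23.2 to 51.7. Their part in the changes of Vegfa, Ski and Il17ra was not tested.

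The genes most like each member across the 83 liver libraries, less group means, were taken from 12254 genes with a mean normalized count over 50, by Pearson's r of log2 levels. For Vegfa they were Akap8l (0.896), Nrbp2 (0.812), Lcn12 (0.807) and Hexd (0.774), with 1 identifier that has no symbol here. For Ski they were Tnrc18 (0.850), Jup (0.832), Cic (0.808), Zcchc14 (0.783) and Bcl9l (0.779). For Il17ra they were Efnb2 (0.634) and Ctdsp1 (0.601), with 3 identifiers without a symbol. With group means kept, the closest were Akap8l for Vegfa (0.968), Tnrc18 for Ski (0.920) and Slc19a2 for Il17ra (0.859). These values are descriptions, and all genes of a library share its scaling factor.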

How the data were processed

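Polyadenylated RNA of 83 livers and 27 kidneys was sequenced. The authors made the deposited tables with Salmon 0.14.0, summing estimated counts of transcripts to genes with tximport in R 3.5.0, and the values used here were whole numbers. A second pair of deposited tables, with the unit bases, holds the average transcript length that the authors obtained in the same step. The genome build is not given in the sources used here.

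Here, edgeR 4.0.16 in R 4.3.3 was run on every gene whose counts summed to over 10 within any 1 group (quasi-likelihood, TMM, 12 group means in liver, Benjamini-Hochberg adjustment, called at an adjusted p under 0.1). Length was tested with limma 3.58.1, and DESeq2 1.42.0 was an alternative. The edgeR fit in liver was first checked on simulated counts with known changes. That check covered the averaged high-dose difference from vehicle and the F0 difference between doses. Alternatives covered the scaling, filter, tool, length offsets, blocks for replicate number, date, litter and F0 sire, and leaving out dates or the 2 libraries least like their groups. Vehicle libraries are shared by the low-dose and high-dose comparisons.

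The members, gene lists and tests were chosen with earlier results of these data known. Named genes were the 3 members, fixed partners, up to 4 called genes per list with a mean normalized count over 50, and the 5 nearest genes by correlation. Markers and Ankrd37 (mean count 47.1) were named after their values were seen. The result of 1 listed gene is not reported here. No identifier was tied for the endothelial, stellate cell, neutrophil or cell cycle lists. Of 2 kidney markers tied, Nphs1 fell by 0.37 and Lrp2 rose by 0.22 in liver at the high dose on the TMM scale, and on library totals Nphs1 was 0.27 higher.

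Same-numbered animals shared a necropsy date, per the study's methods, for 10 of 10 numbers, so the numbers pair libraries through the date. Deviations from group means correlated by 0.0336 on average between same-numbered libraries (419 pairs) and by -0.00319 between others, and by 0.113 between littermates (68 pairs).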

Additional observations from a re-analysis of the deposited data

Results flagged for a closer look

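In 5 of 48 groups tested, the highest or lowest library lay far from the rest (Dixon's test, which flags about 1 in 20 groups by chance), all in liver and in TMM-scaled CPM. For Vegfa these were replicate 4 of the low-dose group of ancestry B at 216.9, with the next library at 141.6, replicate 10 of the vehicle group of ancestry C at 223.6, with the next at 156.7, and replicate 2 of the low-dose group of ancestry D at 125.8, the lowest, with the next at 151.7. For Ski they were replicate 4 of the vehicle group of ancestry C at 9.712, with the next at 19.76, and replicate 10 of the low-dose group of ancestry C at 9.559, with the next at 22.13. The vehicle replicate 4 of ancestry C also has the second lowest median correlation with its group, after the high-dose replicate 7 of ancestry D. Without it the averaged high-dose difference was -0.95 for Vegfa, -0.36 for Ski and -0.45 for Il17ra on the TMM scale. Without the library that lay apart, the log2 difference of its group from ancestry A at the same dose went from 0.24 to 0.12 for Vegfa in low-dose B, from 0.42 to 0.31 for Vegfa in vehicle C, from 0.50 to 0.55 for Vegfa in low-dose D, from 0.59 to 0.77 for Ski in vehicle C and from 0.75 to 0.93 for Ski in low-dose C. This was chosen after seeing the data.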

How the results depend on the processing

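The averaged Vegfa differences at the high dose against vehicle (-0.99 to -0.34) and against the low dose (-0.84 to -0.38) kept their direction and call under all 19 alternatives. Scaling to library totals, an alternative chosen after seeing the data, turned Ski and Il17ra. Without and with length offsets, high against vehicle was 0.2756 and 0.2666 for Ski and 0.1549 and 0.1642 for Il17ra, and high against low was 0.1038 and 0.1015 for Ski and 0.02708 and 0.03209 for Il17ra. At the low dose these scalings gave 0.04071 and 0.03952 for Vegfa, 0.1279 and 0.1321 for Il17ra, and 0.1651 for Ski with offsets, now called. High against vehicle within ancestries gave, for Ski, 0.6147 and 0.4864 in A, 0.3599 and 0.35 in B, 0.1943 and 0.1865 in C and, with offsets, 0.04342 in D, and for Il17ra 0.3259 and 0.3089 in A, 0.281 and 0.2854 in B, 0.00913 and 0.0261 in C and 0.003676 and 0.03622 in D. Vegfa and Il17ra were then called in 2 of 4 ancestries, and Il17ra in 0 of 4 for high against low.

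The low-dose difference of Vegfa passed the threshold without necropsy date 2 (-0.2474), with only the 2 doses compared (-0.1544), by DESeq2 (-0.1496) and by DESeq2 with length offsets (-0.1493), and without date 2 Vegfa was called in 2 of 4 ancestries. That of Ski, near 0, turned to -0.01616 with DESeq2 size factors, -0.01408 with a mean count over 10, -0.0149 with no filter, -0.005905 with the replicate block, -0.06822, -0.006678 and -0.01536 without dates 2, 3 and 4, -0.02117 with only the 2 doses, -0.01617 by DESeq2, -0.01791 by DESeq2 with offsets, and from -0.02983 to -0.01083 without 1 of the 2 libraries that stood apart. High-dose Ski was called in 1 of 4 ancestries at an adjusted p under 0.05, with no filter, with the replicate, date or litter block, without date 1, 3 or 4, and without the high-dose replicate 7 of ancestry D. In ancestry A its difference was 0.05291 without date 1 and 0.02598 without date 3. For high against low, Ski was called in 1 of 4 ancestries with the litter block and without date 1 or 4.

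For F0 between doses, Vegfa was 0.03008 with the replicate block, 0.02166 without date 3 and ran from -0.008668 to 0.009358 without 1 of the 2 libraries that stood apart, and DESeq2 called 7 genes with or without offsets. For F1, Ski was 0.1199 without date 4 and 0.008482 and 0.00242 on library totals without and with offsets, 1 gene was called without date 4, and DESeq2 called 5 genes with or without offsets. In kidney the F0 effect on Vegfa was -0.005996 without date 2 and -0.0002762 without date 4. Genes called there for F0 numbered 77 by DESeq2, 6 with the replicate block, 7 with the date block, 1 with length offsets, 1 with the F0 sire as a correlated block, and 0 with no filter, without date 1, 2 or 4, and on library totals. For F1 the sire block called 1.

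Between organs, library totals gave -0.5383 for Vegfa and -0.5059 with length offsets, and Il17ra was no longer called with offsets (0.07555). Length by dose, in log2 units, turned at the low dose for Vegfa without date 4 (-0.003309) and for Il17ra without date 1 (0.003821). At the high dose Vegfa turned with the replicate block (-1.781e-05), the date block (-0.0001769) and without dates 1 (-0.002922) and 4 (-0.005105), and Il17ra without date 2 (0.002101). For high against low, Vegfa turned without date 2 (0.006305) and Il17ra with the replicate block (-0.0016) and without date 1 (-0.006609). Without the 2 farthest males the liver and kidney correlation was -0.1007 for Vegfa and -0.09107 for Il17ra. The low-dose log2 ratio of Ski to Il17ra was -0.0102 without the vehicle replicate 4 of ancestry C and 0.033 without the high-dose replicate 7 of D. In C the high-dose difference of Ski was -0.3064 with the replicate block and no longer called, and the block changed no other call of a member. Of the values under an alternative, 643 that answer a comparison kept their direction and side of the threshold or, for counts, lay within 1.5 times. The other values were those for single ancestries, the Ski length by dose and the correlations between members, and 207 of them stayed the same. For single ancestries that meant the same direction and side of the threshold, for Ski length within 1 SE, and for correlations the same sign. Of those that answer a comparison, 47 changed direction and 35 counts moved by more than 1.5 times. A further 5 newly passed the threshold and 1 no longer passed. For the other values these numbers were 17, 0, 2 and 14. The cause of these differences was not tested.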
